A study of Homo sapiens with 24 samples.

Results

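SLC7A5 and 9 other plasma membrane amino acid transporters, or subunits of them, were examined in RNA-seq data from RCC4+VHL cells. The 10 genes were SLC7A5, SLC3A2, SLC7A1, SLC7A6, SLC7A11, SLC1A5, SLC1A4, SLC38A1, SLC38A2 and SLC43A1, of 23106 gene symbols counted. SLC7A5 was chosen by its response to ITE in normoxia in these same libraries. The values in that contrast are therefore given as a description without a test. The others were chosen by function, with earlier results of these data known, so their tests are not independent of that choice. RCC4+VHL is a renal cell carcinoma line, a clone stably transfected with a VHL expression plasmid. VHL marks HIF-α for degradation when oxygen is present, and all the libraries carry the transgene. ITE is an indole ligand that activates the aryl hydrocarbon receptor (AHR). Cells were kept for 6 h in ambient oxygen or at 0.5% oxygen, and over the same 6 h received either ITE at 100 nM or the vehicle DMSO at 0.1%. The 4 groups of 6 libraries are called normoxia + DMSO and normoxia + ITE, and at low oxygen hypoxia + DMSO and hypoxia + ITE. The question put to these genes was how their mRNA responded to activation of AHR, to hypoxia, and to both stimuli together.

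SLC7A5 (LAT1) is the catalytic light chain of a transporter that exchanges large neutral amino acids, among them leucine, tryptophan and kynurenine. It reaches the cell surface only when joined to the heavy chain SLC3A2 (CD98hc or 4F2hc), which also carries SLC7A6 (y+LAT2) and the cystine and glutamate exchanger SLC7A11 (xCT). SLC1A5 (ASCT2) and SLC1A4 (ASCT1) exchange neutral amino acids. SLC38A1 (SNAT1) and SLC38A2 (SNAT2) bring in glutamine and other neutral amino acids with sodium. SLC7A1 (CAT1) takes up arginine and lysine, and SLC43A1 (LAT3) carries leucine without a heavy chain. AHR bound to ligand and HIF-α each pair with ARNT and bind DNA at short core motifs, the xenobiotic response element (XRE) core GCGTG for AHR and the hypoxia response element (HRE) core ACGTG for HIF.

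The sequences before the start sites of SLC7A5 and SLC3A2 are shown because these members had the largest log2 fold changes with ITE. They are RefSeq promoter sequences (table of build GRCh38.p14) placed on GRCh37, the build of the counts, by an exact match of the whole sequence. Each is the 250 bases before an annotated start, written 5′ to 3′ on the gene's strand with XRE and HRE cores in capitals. The SLC7A5 window is chr16:87903114-87903363 on the minus strand. The SLC3A2 window, chr11:62648921-62649170 on the plus strand, belongs to the third of 3 annotated starts and is the one of the 3 that overlaps no annotated untranslated region.
SLC7A5: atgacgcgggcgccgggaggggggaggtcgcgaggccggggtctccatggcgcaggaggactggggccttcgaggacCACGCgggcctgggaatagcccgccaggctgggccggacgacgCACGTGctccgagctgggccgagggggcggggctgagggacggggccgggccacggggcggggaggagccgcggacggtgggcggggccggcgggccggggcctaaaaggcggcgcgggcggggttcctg
SLC3A2: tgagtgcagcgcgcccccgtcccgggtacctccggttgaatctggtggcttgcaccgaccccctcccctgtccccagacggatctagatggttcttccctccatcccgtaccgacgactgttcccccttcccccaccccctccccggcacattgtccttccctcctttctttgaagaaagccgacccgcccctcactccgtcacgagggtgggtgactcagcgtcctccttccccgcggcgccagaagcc

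The SLC7A5 window held 1 XRE core, on the reverse strand 173 to 169 bases before the start. It also held an HRE core on each strand, overlapping in the palindrome CACGTG, from 130 to 125 bases before the start. The printed SLC3A2 window held neither core, whereas the window of its first start held 2 XRE cores and that of its second start 1. GCGTG was searched on both strands and was found in 32.2% of 35116 promoter windows of the same length, ACGTG in 18.5%, and both in 7.5%. The table matched 9 of the 10 members with 16 starts, all but SLC7A11, and 9 of the 16 windows held an XRE core and 6 an HRE core. The amino acid response element, searched as TGATGNAAN on both strands, was in 1 window, the first start of SLC1A5, and in 3.1% of all windows. The 1 window of SLC38A2 held none of the 3 motifs, and sequence after the starts, introns included, was not searched for any member. These matches describe letters in a window, and binding was not measured here.

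**Figure D1:**
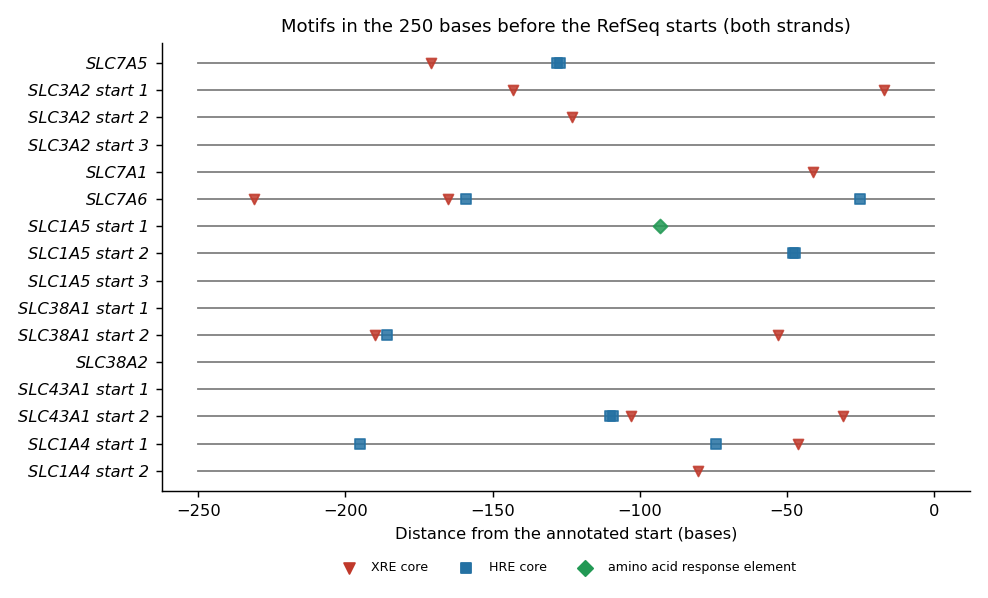
Positions of the 3 motifs in the 250 bases before each of the 16 RefSeq starts of 9 members, with the distance from the start in bases on the x axis and 1 line per start. Triangles mark XRE cores, squares HRE cores and the diamond the amino acid response element. SLC7A5 carried both kinds of core, as did SLC7A6, the second start of SLC38A1, the second start of SLC43A1 and the first start of SLC1A4.

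The libraries held between 770094 and 93851342 counts each (median 7981992), and 3 counts corresponded to between 0.032 and 3.90 CPM (counts relative to the library size, with edgeR's TMM factors), a floor that covers counting error only. CYP1B1, a target of AHR, rose from a mean of 56.7 ± 7.75 CPM (SD, n = 6) to 322 ± 53.0 CPM with ITE in normoxia, and NDRG1, a target of HIF, from 33.2 ± 6.02 to 316 ± 58.6 CPM in hypoxia with DMSO. The renal epithelial markers PAX8, PAX2, KRT8 and KRT18, and VIM, which is not particular to epithelium, were present in every group. Their summed level was 3121 to 6376 CPM per library. VIM was the largest part in normoxia + DMSO, with a mean of 2041 CPM. The means there were 655 CPM for KRT8, 519 for KRT18, 244 for PAX8 and 28.3 for PAX2. The proximal tubule genes LRP2, CUBN and SLC34A1 summed to at most 0.956 CPM, so these defining markers of the tubule were near 0. Of 6 markers of other cell types, CD3E was at 0 in 3 of the groups, PTPRC in 3, and the summed level was at most 3.23 CPM, apart from normoxia + DMSO replicate 4 with 28.8 CPM, of which COL1A1 made up 27.1. Hypoxia + ITE replicate 6 stood apart, with 1985 CPM of KRT8 and a sample quality weight of 0.0723, and hypoxia + ITE replicate 3 (0.173) and hypoxia + DMSO replicate 1 (0.252) also had low weights. The biological coefficient of variation was 12.7% in normoxia and 29.1% in hypoxia. Fewer expressing cells and less RNA per cell cannot be told apart in these bulk samples.

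SLC7A5 had the highest level of the 10 transporters per kilobase of exon in each of the 4 groups. The length used was the union of annotated exons, 4764 bases for SLC7A5 and 6392 for SLC3A2, which can exceed the transcript made. Transcript lengths were not measured, so orders, shares and ratios between genes depend on that choice. In normoxia + DMSO its level was 119 ± 15.4 CPM per kb (SD, n = 6), ahead of SLC1A5 at 68.0 ± 8.82 and SLC3A2 at 56.9 ± 11.2, and its range did not overlap that of SLC1A5. SLC1A5 and SLC3A2 overlapped each other in all 4 groups. SLC38A1 followed at 36.5 ± 2.74 CPM per kb and overlapped SLC38A2 at 29.3 ± 3.21. Below them came SLC7A1 at 19.4 ± 2.22 and SLC7A6 at 11.1 ± 0.370, without overlap between neighbours. SLC1A4 at 4.17 ± 0.802 and SLC7A11 at 3.78 ± 0.974 CPM per kb were the lowest of the expressed members and overlapped each other. In hypoxia + DMSO, SLC38A2 stood above SLC38A1 at 44.4 ± 8.42 against 36.9 ± 4.08 CPM per kb, with overlapping ranges.

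SLC43A1, the only member that did not pass the filter on low counts, had 4 counts in all over the 24 libraries and was at 0 in 21 of them, which is at or under the floor in every group. Of the leucine carriers SLC7A5 and SLC43A1, only the first was detected above that floor.

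**Figure D2:**
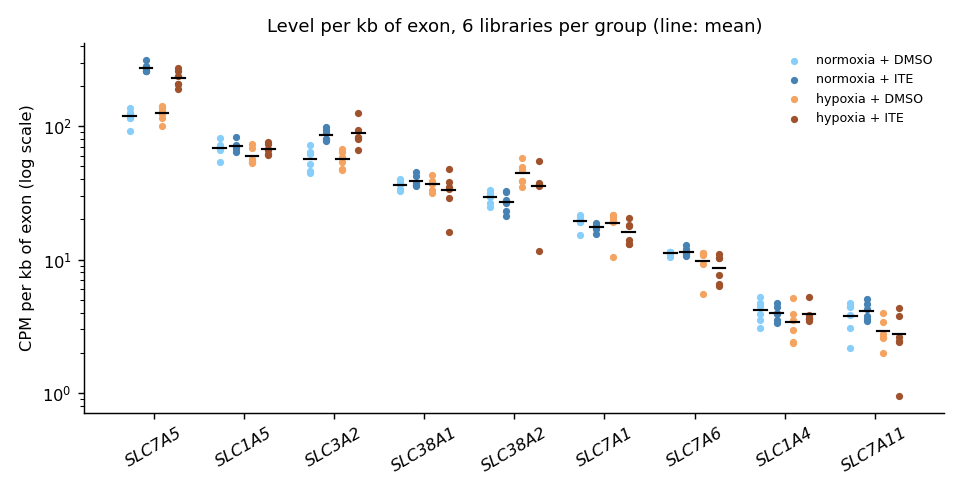
Level of each of the 9 expressed members in CPM per kb of exon on a log scale, with 1 point per library, the 4 groups in colour and a line at the mean of each group. SLC7A5 lies highest in every group. The hypoxia + ITE points that lie far below their group for SLC38A2 (11.5), SLC38A1 (16.2) and SLC7A11 (0.951) are replicate 6.

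SLC7A5 made up 34.1% ± 1.61 (SD, n = 6) of the summed per-kb level of the 10 members in normoxia + DMSO and 51.3% ± 1.96 in normoxia + ITE. In hypoxia + DMSO its share was 34.8% ± 3.36 and in hypoxia + ITE 47.1% ± 1.77. Among the 6 light chains known to pair with SLC3A2 (SLC7A5, SLC7A6, SLC7A7, SLC7A8, SLC7A10 and SLC7A11, of which SLC7A7, SLC7A8 and SLC7A10 were named after their values were seen), SLC7A5 held 88.0% ± 0.911 of the per-kb level in normoxia + DMSO and 94.2% ± 0.465 in normoxia + ITE. The corresponding shares were 90.0% ± 0.671 in hypoxia + DMSO and 94.8% ± 1.19 in hypoxia + ITE. SLC7A6 held 8.37% ± 1.10 in normoxia + DMSO and SLC7A11 2.77% ± 0.555. SLC7A8 (LAT2), the other large neutral amino acid exchanger of the family, had 3 counts over all libraries and SLC7A10 had 0.

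With ITE in normoxia, the contrast that chose it, SLC7A5 rose in every library. The 6 libraries of normoxia + DMSO held 658, 551, 599, 439, 595 and 555 CPM from replicate 1 to replicate 6. In normoxia + ITE they held 1506, 1289, 1352, 1243, 1234 and 1226 CPM. The lowest ITE library was 1226 CPM and the highest DMSO library 658 CPM, so the groups did not overlap. The means were 566 ± 73.5 and 1309 ± 108 CPM (SD, n = 6), a log2 fold change of 1.21 (SE 0.12, 95% interval 0.97 to 1.45) or 2.31-fold. Over all genes tested, 0.0511% passed an adjusted p of 0.05 in this contrast, and nothing is read from that for SLC7A5.

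SLC7A5 was also higher with ITE in hypoxia. The hypoxia libraries are outside the contrast that chose it, but the choice was made with earlier results of all these libraries known, so the test here is not independent support. In hypoxia + DMSO the levels were 481, 672, 585, 655, 620.0 and 550.0 CPM in replicates 1 to 6. In hypoxia + ITE they were 1291, 990.0, 906, 991, 1139.5 and 1224 CPM. Each of the 6 ITE libraries was above each of the 6 DMSO libraries, and 6 of 6 same-numbered pairs were higher with ITE. Such tallies by replicate number are descriptions, since the numbers were not taken to pair the samples. The mean rose from 594 ± 71.3 to 1090.2 ± 151 CPM (SD, n = 6), a log2 fold change of 0.88 (SE 0.12, 95% interval 0.64 to 1.11) or 1.84-fold. The adjusted p was 1.56e-04 by edgeR's quasi-likelihood test, with Benjamini-Hochberg adjustment over 11735 genes. An exact two-sided permutation test of the 12 hypoxia libraries, added after seeing the data, gave p = 0.00216, not adjusted over genes. This is the smallest p it can give with 6 against 6. It follows from the separation of the groups and adds nothing to it.

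SLC7A5 was 1 of 7 genes (0.0597%) past the threshold in that contrast, and 18 of 11735 genes (0.153%) had all 6 ITE libraries above all 6 DMSO libraries in hypoxia. The call rested on an estimate of the spread shared with the normoxia libraries: with the 12 hypoxia libraries alone the log2 fold change was 0.88 and the adjusted p 0.0735 by edgeR, and with the replicate number as a block in addition 0.87 and 0.908. Without hypoxia + DMSO replicate 1 and hypoxia + ITE replicates 3 and 6, the libraries of lowest weight, it was 0.84 (adjusted p = 2.77e-06 by edgeR).

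Hypoxia by itself left SLC7A5 at a level close to that of normoxia, with a log2 fold change of 0.07 in DMSO (95% interval -0.17 to 0.30) and 3 of 6 pairs higher. In the presence of ITE the difference between hypoxia and normoxia was -0.26 (SE 0.11, 95% interval -0.50 to -0.03), with 0 of 6 pairs higher and overlapping groups. These values use the libraries that chose SLC7A5 and carry no test. The log2 fold change with ITE was 0.33 lower in hypoxia than in normoxia (difference -0.33), and this difference was not tested.

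**Figure D3:**
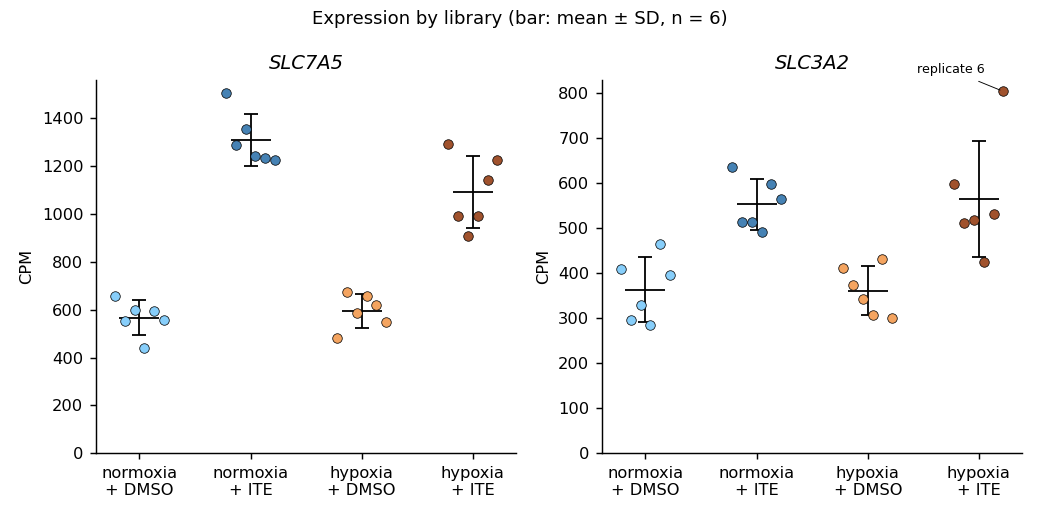
CPM of SLC7A5 (left) and SLC3A2 (right) in each of the 24 libraries, with the mean and SD of each group of 6. For SLC7A5 the ITE libraries lie above all DMSO libraries at either oxygen level, whereas for SLC3A2 in hypoxia the lowest ITE library (424 CPM) lies below the highest DMSO library (432 CPM).

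SLC3A2, the heavy chain, was also higher with ITE, by less than SLC7A5 in normoxia. In normoxia + DMSO its 6 libraries held 410.1, 296, 330.3, 285, 465 and 395 CPM in replicates 1 to 6. In normoxia + ITE they held 635, 514, 514, 491, 598 and 564 CPM. The groups did not overlap, with 491 CPM the lowest with ITE and 465 CPM the highest with DMSO, and the log2 fold change was 0.61 (SE 0.14, 95% interval 0.31 to 0.90). SLC7A5 and SLC3A2 were the 2 of 9 members in this contrast with all 6 ITE libraries above all 6 DMSO libraries, against 56 of 11735 genes (0.477%), a contrast used to choose the first of them.

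In hypoxia + DMSO, SLC3A2 was at 412, 374, 343, 306, 432 and 301 CPM in replicates 1 to 6. In hypoxia + ITE it was at 598, 511, 518, 424, 531 and 803 CPM. All 6 pairs were higher with ITE, but the groups overlapped by 1 library, and the highest value was that of replicate 6, the library that stood apart. The log2 fold change was 0.64 (SE 0.14, 95% interval 0.35 to 0.94). It did not pass the threshold over all genes (unadjusted p = 1.16e-04, adjusted p = 0.171 by edgeR), where 9.52% of all genes had an unadjusted p under 0.05. Over 11 other settings the adjusted p ranged from 0.0232 to 0.975 and was under 0.05 in 2 of them, DESeq2 (0.0232) and the replicate block (0.0349). Without replicate 6 of hypoxia + ITE the log2 fold change was 0.51 (adjusted p = 0.294 by edgeR). SLC3A2 did not change detectably in hypoxia, with log2 fold changes of -0.01 with DMSO (95% interval -0.30 to 0.28) and 0.03 with ITE (-0.26 to 0.32).

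The ratio of SLC7A5 to SLC3A2, each per kb of exon, was 2.13 ± 0.305 (SD, n = 6) in normoxia + DMSO and 3.19 ± 0.299 in normoxia + ITE. In hypoxia it was 2.25 ± 0.455 with DMSO and 2.65 ± 0.403 with ITE, with ranges of 1.56 to 2.87 and 2.04 to 3.14 that overlapped. The light chain mRNA was thus above the heavy chain mRNA in every library when each was divided by its union of exons. Transcripts of SLC3A2 shorter than that union would lower the ratio, so it does not settle which mRNA was more abundant.

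SLC3A2 was the fourth of 11625 genes in likeness to SLC7A5, by Pearson's r of log2 CPM over the 24 libraries. ALDH1A3, a retinaldehyde dehydrogenase, and CYP1B1, a cytochrome P450, came first with r = 0.89 each. TIPARP, an ADP-ribosyltransferase that represses AHR, had r = 0.84, SLC3A2 had r = 0.84, and ASB2, a subunit of a ubiquitin ligase, had r = 0.76. The libraries share the 4 groups, so r partly reflects the group means. They include the normoxia libraries that chose SLC7A5, so genes that rise with ITE rank high and the ranks are a description. With ITE in normoxia the log2 fold changes of these genes were 1.33, 2.51, 1.35, 0.61 and 0.92 in the same order. With ITE in hypoxia they were 1.04, 2.35, 0.67, 0.64 and 1.31. Among the other members, SLC1A5 had the next highest r, 0.41 (rank 205), and SLC38A2 the lowest, -0.31 (rank 10903).

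The remaining 7 expressed members did not pass the threshold with ITE in hypoxia, and none had separate groups. In the fit of all 24 libraries their log2 fold changes lay between -0.32 (SLC38A2) and 0.17 (SLC1A5). The 95% intervals of that fit reached from -0.75 to 0.50, short in size of the 0.88 of SLC7A5. These intervals rest on the spread shared with the normoxia libraries. With the compared groups alone the SE of SLC38A2 was 0.25, against 0.21 in the fit of all libraries. The median of the 7 was -0.15, against 0.02 for all genes tested. The other 2 partners of SLC3A2 among the members were on the lower side, SLC7A6 at -0.18 (95% interval -0.48 to 0.13) and SLC7A11 at -0.13 (-0.61 to 0.35). SLC7A1, the arginine carrier, was at -0.22 (-0.52 to 0.08) and was higher in 1 of 6 pairs. In normoxia, where ITE was not tested, the 7 lay between -0.15 and 0.14 with a median of 0.04.

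**Figure D4:**
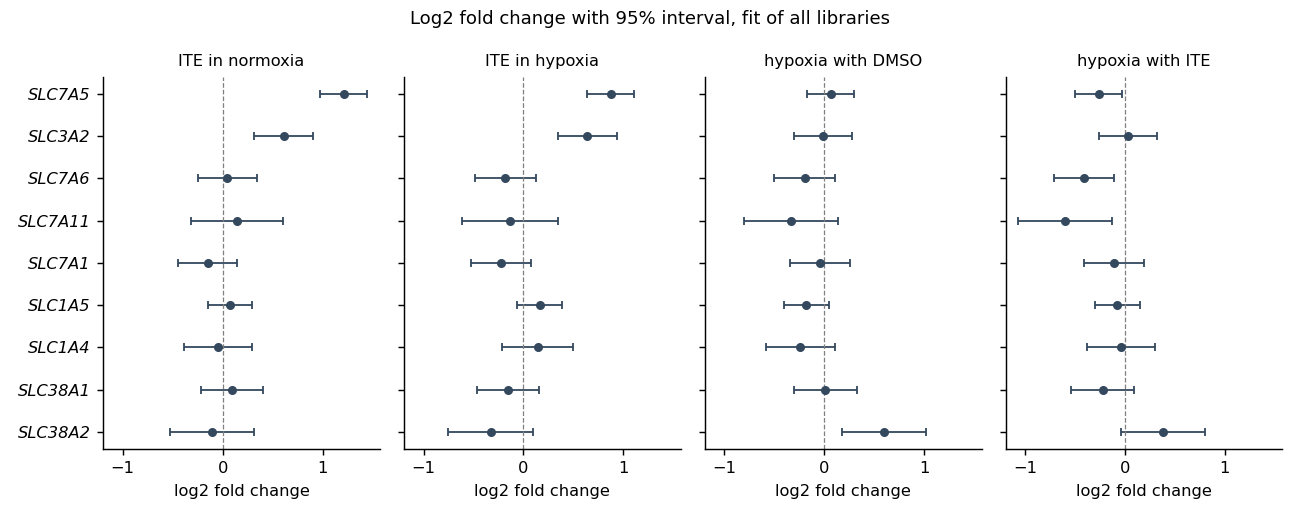
Log2 fold change of the 9 expressed members in 4 comparisons, with 95% intervals from the fit of 24 libraries on the x axis and 1 line per member. SLC7A5 and SLC3A2 lie above 0 in both ITE comparisons, at 1.21 and 0.61 in normoxia and 0.88 and 0.64 in hypoxia, and SLC38A2 at 0.60 in hypoxia with DMSO.

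In hypoxia with DMSO, SLC38A2 was the member with the largest difference. SLC38A2 (SNAT2) is known to be induced when cells lack amino acids. Its level in normoxia + DMSO was 206, 216, 198, 160.0, 172 and 192 CPM in replicates 1 to 6. In hypoxia + DMSO it was 376, 319, 254, 251, 229 and 303 CPM, all above the highest normoxia value of 216. The means were 191 ± 20.9 and 289 ± 54.8 CPM (SD, n = 6), a log2 fold change of 0.60 (SE 0.21, 95% interval 0.18 to 1.02), higher in 6 of 6 pairs. With all 24 libraries in the model it did not pass the threshold (unadjusted p = 0.00715, adjusted p = 0.234 by edgeR). None of the 8 members tested did, against 153 of 11735 genes (1.30%). At an unadjusted p under 0.05 it was 1 of 8 members, against 9.39% of all genes, and it was the 1 member with separate groups, against 211 genes (1.80%) with all 6 hypoxia libraries above all 6 normoxia libraries.

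Whether SLC38A2 passed the threshold changed with 1 library, hypoxia + ITE replicate 6. That library is outside the DMSO contrast and enters its test through the estimate of the spread shared by all libraries. With the normoxia + DMSO and hypoxia + DMSO libraries alone the log2 fold change was 0.59 (adjusted p = 0.00705 by edgeR). In hypoxia + ITE, SLC38A2 was at 354, 241, 239.9, 243, 232 and 75.1 CPM in replicates 1 to 6. In normoxia + ITE it was at 209, 212, 149.5, 173, 138 and 181 CPM. Replicates 1 to 5 of hypoxia + ITE were above all 6 normoxia + ITE libraries and replicate 6 was below them. The log2 fold change was 0.38 (95% interval -0.04 to 0.80, adjusted p = 0.303 by edgeR). Without that library it was 0.55 with ITE (adjusted p = 0.0153 by edgeR) and 0.59 with DMSO (adjusted p = 0.00496 by edgeR), past the threshold at both. Without the 3 libraries of lowest weight the values were 0.57 (adjusted p = 0.0109) and 0.48 (adjusted p = 0.0231), also by edgeR. The low SLC38A2 of replicate 6 came with its high KRT8, and its part in the result is shown by these values without it.

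In hypoxia with ITE, 0 of 8 members passed the threshold by edgeR and by DESeq2, against 280 genes (2.39%) by edgeR and 684 genes by DESeq2. At an unadjusted p under 0.05, 2 of 8 were lower, against 20.1% of all genes. They were SLC7A6 (log2 fold change -0.41, 95% interval -0.71 to -0.11, adjusted p = 0.122 by edgeR) and SLC7A11 (-0.60, -1.07 to -0.13, adjusted p = 0.145), and each was lower in 6 of 6 pairs with overlapping groups. SLC7A11 was at 41.1, 36.1, 34.7, 33.5, 48.8 and 45.1 CPM in normoxia + ITE and at 36.4, 23.7, 25.6, 23.0, 42.1 and 9.17 CPM in hypoxia + ITE, replicate 6 being the lowest. For SLC7A6 the lowest levels in hypoxia were 41.7 CPM in hypoxia + DMSO replicate 1, and 48.5 and 49.7 CPM in hypoxia + ITE replicates 6 and 3, which are the 3 libraries of lowest weight. Without them the log2 fold change of SLC7A6 was -0.25 (adjusted p = 0.160 by edgeR) and that of SLC7A11 -0.42 (adjusted p = 0.481).

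The other 4 expressed members did not pass the threshold with oxygen. SLC1A5 was at 227 ± 29.4 CPM (SD, n = 6) in normoxia + DMSO, 238 ± 20.8 in normoxia + ITE, 200.3 ± 29.4 in hypoxia + DMSO and 225 ± 20.9 in hypoxia + ITE. SLC38A1 was at 365 ± 27.5, 389 ± 37.7, 369.9 ± 40.9 and 333 ± 104 CPM in the same order. Its lowest library in hypoxia + ITE was replicate 6 at 162 CPM, and the next lowest was replicate 3 at 289 CPM. SLC7A1 was at 149 ± 17.1, 134 ± 8.48, 145 ± 33.0 and 124 ± 24.4 CPM, and SLC1A4 at 28.9 ± 5.57, 27.6 ± 3.60, 23.5 ± 7.24 and 27.0 ± 4.61 CPM. For these 4 genes the groups overlapped in every comparison, and their log2 fold changes between hypoxia and normoxia lay within the intervals from -0.58 to 0.33.

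**Figure D5:**
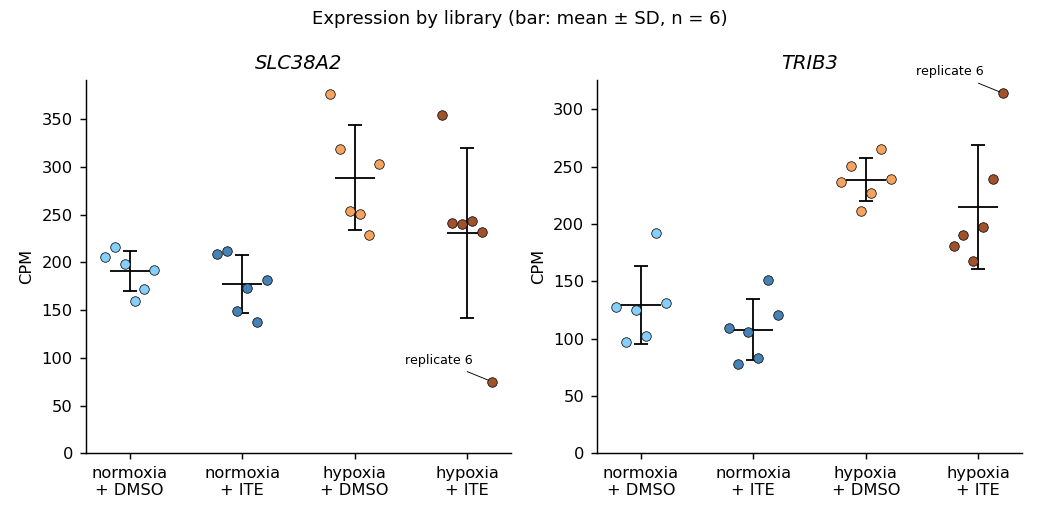
CPM of SLC38A2 (left) and TRIB3 (right) in each of the 24 libraries, with the mean and SD of each group of 6 and hypoxia + ITE replicate 6 marked. Replicate 6 is the lowest library for SLC38A2 (75.1 CPM) and the highest for TRIB3 (314 CPM), and the hypoxia + DMSO libraries lie above the normoxia + DMSO libraries in both panels.

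Genes that act beside the transporters were followed in 5 lists. Of 16 genes of the amino acid response and serine synthesis, 14 were tested. In the main fit 1 of them passed the threshold in hypoxia, TRIB3, a pseudokinase induced by ATF4. It was higher with DMSO, where 1.30% of all genes passed, and with ITE, where 2.39% did. At an unadjusted p under 0.05, 2 of the 14 lay above 0 in hypoxia with DMSO (9.39% of all genes in either direction) and 2 in hypoxia with ITE (20.1%), and with ITE in hypoxia 1 lay above and 1 below (9.52%). TRIB3 rose from 129 ± 33.7 to 239 ± 18.8 CPM (SD, n = 6) with DMSO, a log2 fold change of 0.89 (SE 0.17, adjusted p = 0.00215 by edgeR). With ITE it rose from 108 ± 26.7 to 215 ± 54.5 CPM, by 0.99 (SE 0.17, adjusted p = 6.01e-04 by edgeR). Hypoxia and normoxia did not overlap in either case, and over 11 other settings its adjusted p stayed at or below 0.0183. The median of the 14 was 0.06 in both contrasts, and none of the others passed the threshold in the main fit. ATF4 passed it in hypoxia with ITE by DESeq2. In hypoxia with DMSO, ATF4 and ATF5 passed it with quality weights and without the 3 libraries of lowest weight.

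In the main fit no gene of the remaining 4 lists passed the threshold in hypoxia with DMSO, hypoxia with ITE or ITE in hypoxia. Of all genes, 1.30%, 2.39% and 0.0597% did so in the same order. Of 25 other plasma membrane amino acid transporters, 7 passed the filter on low counts, and at an unadjusted p under 0.05, 1 lay above 0 and 2 below in hypoxia with DMSO, 1 below in hypoxia with ITE and 1 above with ITE in hypoxia. These counts, and those of the next 3 lists at the same unadjusted p, stand beside 9.39%, 20.1% and 9.52% of all genes in the same order, and nothing particular to the lists is read from them. Of 23 genes through which mTORC1 senses amino acids, 20 were tested, and 2, 4 and 3 lay above 0 at that p. Of 13 genes of tryptophan and kynurenine metabolism, 6 were tested, and 0, 2 and 1 did so. Of 13 genes for the use of leucine, glutamine and cystine, 12 were tested, and 0, 3 and 1 did so. With ITE in hypoxia the medians of the 5 lists lay between -0.11 and 0.07, and no gene of any list was called, TRIB3 included (-0.15, adjusted p = 0.780 by edgeR).

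How reads were assigned bears on 4 of these genes. SLC7A5 lies on chromosome 16 of GRCh37 from 87863629 to 87903113, and near-identical partial copies, SLC7A5P1 and SLC7A5P2, lie elsewhere on that chromosome. The copies held 36 and 1077 counts, 0.00842% and 0.252% of those of SLC7A5. Reads that matched both SLC7A5 and a copy were removed as not uniquely mapped, so the counts of all 3 leave those reads out. Genes on the opposite strand share 55.6% of the exonic bases of SLC7A6, 23.8% of SLC1A5, 9.0% of SLC7A11 and 5.7% of SLC7A5. The strand setting of the counting is not given in the sources used here, so reads from these stretches cannot be assigned to a strand. SLC3A2, on chromosome 11 from 62623476 to 62656352, and SLC38A2, on chromosome 12 from 46751971 to 46766556, shared 0.0% of their exons with other genes.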

How the data were processed

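RNA-seq of poly-A RNA from RCC4+VHL cells gave 24 libraries, 6 independent replicates in each of 4 groups. The authors trimmed adaptors with Trim Galore, aligned reads to GRCh37 with HISAT2, removed fragments that did not map uniquely with Picard, counted reads per gene with HTSeq in its strict intersection mode, and deposited raw counts without normalisation. Reads that matched a gene and its copy alike were thus left out of the counts.

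Groups came from the sample labels. The counts were fitted with edgeR 4.0.16 in R 4.3.3 (TMM, filterByExpr with a minimum count of 10, 1 mean per group, all 24 libraries, robust quasi-likelihood test, two-sided), with Benjamini-Hochberg adjustment over the 11735 genes tested and a threshold of 0.05. The script was tested on simulated data. Log2 CPM used a prior count of 2, and levels per kb used the union of GENCODE exons of GRCh37. The exact permutation test used scipy 1.17.1.

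The members and lists were chosen with earlier results of these data known. Genes named were the 10 members, copies of SLC7A5, CYP1B1 and NDRG1 as checks, up to 4 called genes per list, the 5 genes most like SLC7A5 and the cell type markers. SLC7A7, SLC7A8 and SLC7A10, partners of SLC3A2, were named outside this rule. There were 12 alternatives, of which 9 were planned (among them DESeq2 1.42.0 and limma 3.58.1 with sample quality weights) and 3 were added after seeing the data: leaving out the 3 libraries of lowest weight, leaving out normoxia + DMSO replicate 4, and the permutation test. Deviations of same-numbered replicates had a correlation over 0.1 in 5 of 6 pairs for ITE in normoxia, 4 of 6 for hypoxia with DMSO, 3 of 6 for hypoxia with ITE and 2 of 6 for ITE in hypoxia. The same number gave the highest correlation for 5, 4, 3 and 1 of 6 replicates in the same order. Since not every pair passed, the numbers were not taken to pair the samples in the main fit, and the replicate block is given as an alternative.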

Additional observations from a re-analysis of the deposited data

Results flagged for a closer look

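For the 9 expressed members, 36 groups of 6 libraries were examined for a library far from the others by Dixon's criterion at the 95% level, which chance meets in about 5% of groups, and 3 were found. In hypoxia + DMSO replicate 1, SLC7A1 was at 79.7 CPM, against 147 to 167 CPM in the other 5 libraries. In the same library SLC7A6 was at 41.7 CPM, against 69.9 to 85.2 CPM. In hypoxia + ITE replicate 5, SLC1A4 stood at 36.2 CPM, and the next highest library held 26.7 CPM. Hypoxia + DMSO replicate 1 is also among the 3 libraries of lowest quality weight.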

How the results depend on the processing

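For SLC7A5 with ITE in hypoxia, 9 of 11 alternatives with an adjusted p kept it under 0.05, and over all 11 the log2 fold change was 0.84 to 0.91. The added exact permutation test gave 0.87 (p = 0.00216, not adjusted). With the compared groups alone it was 0.88 (adjusted p = 0.0735 by edgeR), and 0.87 with the replicate block added (adjusted p = 0.908). In that contrast 0 members were called with the compared groups alone, with or without the block, and 2 (SLC7A5 and SLC3A2) with DESeq2 or the replicate block over all libraries. With the replicate block SLC3A2 was at 0.63 (adjusted p = 0.0349). In hypoxia with DMSO, SLC38A2 became the 1 member called with the compared groups alone, with or without the block, with quality weights, and without the 3 libraries of lowest weight. Without hypoxia + ITE replicate 6 or hypoxia + DMSO replicate 2 the members called ranged from 0 to 1. In hypoxia with ITE it became the 1 member called with quality weights and without the 3 libraries, and the range without a replicate was again 0 to 1. List genes called in hypoxia with DMSO numbered 2 with DESeq2, 7 with quality weights and 4 without the 3 libraries. Over all genes, 249, 822 and 459 were called under the same settings. The 7 were TRIB3, ATF4, ATF5, LAMTOR5, RRAGA, SLC36A1 and SLC43A2. Without a replicate the list genes called numbered 1 to 2. In hypoxia with ITE the list genes called numbered 5 with DESeq2 and 3 with quality weights, beside 684 and 596 called over all genes. The cause of these shifts was not tested. TRIB3 was called in both hypoxia contrasts under all 11 alternatives. Over all genes, calls numbered 6 for ITE in normoxia (4 to 267 over the alternatives), 153 in hypoxia with DMSO (123 to 822), 280 in hypoxia with ITE (55 to 684) and 7 for ITE in hypoxia (1 to 9). Depth limits the low members most: in the shallowest library 3 counts are 3.90 CPM.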
